A study of Mus musculus with 20 samples.

Results

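Medullary thymic epithelial cells of NOD mice were compared with those of B6 mice, with an intact Aire gene in both strains. The comparison used 6 of the 20 arrays of the series: the 3 labelled as NOD Aire wild-type (WT) and the 3 labelled as B6 Aire wild-type, chosen by their titles. Each array held RNA from the sorted cells of 1 thymus of a male mouse aged 3 to 4.5 weeks, and the cells had been gated as CD45 negative, G8.8 positive, Ly51 intermediate and MHC class II high. The other arrays held the same cells from 3 NOD and 3 B6 Aire knockout (KO) mice and from 4 WT and 4 KO BALB mice; these 14 are other animals than the 6 WT mice. The labels name the strains only as NOD, B6 and BALB, without substrain, and do not say whether any mice were littermates. The values are RMA intensities of an Affymetrix array, given here as log2, and a difference is the mean of the 3 NOD mice minus the mean of the 3 B6 mice.

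Medullary epithelium rich in MHC class II presents the body's own proteins to developing T cells, and Aire, a nuclear regulator made in these cells, adds many products of peripheral organs to what they show. NOD mice develop autoimmune diabetes and inflammation of the salivary and lacrimal glands, while B6 mice do not, and the strains also differ in their MHC haplotype. Loss of Aire leads to attack on several organs, and which organs are hit is known to depend on the strain.

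Of 45037 probe sets, 3172 differed between NOD and B6 WT mice at a Benjamini-Hochberg adjusted p under 0.05 in limma (7.04%). Of these, 1141 were higher in NOD mice (2.53%) and 2031 were lower (4.51%). A difference of 2-fold or more was found for 1261 (2.80%), 385 of them higher and 876 lower, and 22 higher and 31 lower probe sets differed 8-fold or more. The number of mice limits these counts: without NOD mouse 2, 1973 probe sets passed, and without B6 mouse 2, 2039 did. Each gene was then read from 1 probe set, the brightest over all arrays. Of 18193 genes, 437 were higher in NOD mice (2.40%) and 1146 were lower (6.30%). The 3 NOD mice lay wholly apart from the 3 B6 mice for 4696 genes (25.8%), among them 1558 of the 1583 genes called. Lack of overlap therefore adds little for a gene that is already called. The median difference over all genes was -0.01.

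Single genes were read beside the strain labels, but those given here cannot by themselves tell NOD from B6 mice. Nnt, a mitochondrial transhydrogenase that is partly deleted in some B6 substrains, read 8.66, 8.17 and 8.89 in the B6 mice and 9.61, 9.83 and 9.94 in the NOD mice. Its other probe sets differed by 0.45 and 0.13 and did not pass. H2-Ea, an MHC class II gene that neither the B6 nor the NOD haplotype transcribes, read between 8.96 and 9.49 in all 6 mice against a mean of 11.87 in BALB WT mice; a dimmer probe set of it was higher in NOD mice by 0.68. Aire itself read 10.81, 10.74 and 10.65 in the B6 mice and 11.45, 11.16 and 10.96 in the NOD mice, a difference of 0.46 ± 0.26 (SE) that did not pass (adjusted p = 0.361). Markers of the sorted cell type were high in both strains: the mean over 21 genes of mature medullary epithelium ranged from 10.40 to 10.62 in B6 and from 10.44 to 10.50 in NOD mice. Only Cldn3, a tight junction protein (-0.85), and H2-Ab1, the MHC class II beta chain (-0.51), passed in that list, and as the mean over its probe sets H2-Ab1 did not (adjusted p = 0.0572). By number, the labels' sample codes form 4 runs, and nothing says what a run stands for. No run held WT mice of both strains: B6 mice 2 and 3 were in one, NOD mice 2 and 3 in another, NOD mouse 1 in yet another, and B6 mouse 1 has no code, so strain and run cannot be told apart among the WT mice. With the run as a fixed term, B6 mouse 1 is left out because it has no code. The strains are then linked only through B6 KO mouse 1, which shares a run with NOD WT mouse 1 and NOD KO mouse 1. In that fit 553 probe sets passed, 447 of them among the 3172, and 46 of the 3172 had the opposite sign. The log2 ratio of the 3' to the 5' Gapdh control was 3.76, 1.90 and 2.31 in the B6 mice and 2.43, 2.30 and 2.18 in the NOD mice, so B6 mouse 1 stood apart.

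Blood cell markers were present in both strains despite the CD45 gate. The mean over 20 genes of dendritic cells and macrophages read 8.21, 8.35 and 8.60 in the B6 mice and 7.95, 9.0 and 9.82 in the NOD mice. NOD mouse 1 lay below all B6 mice and NOD mice 2 and 3 above them. Of the list, only Cd83, an activation marker of dendritic cells, passed (1.24), and it no longer passed without B6 mouse 1 or 3 or NOD mouse 2 or 3. Some markers of the list were well above the bottom of the scale. Ptprc, which encodes CD45, averaged 9.52 in B6 and 10.05 in NOD mice (adjusted p = 0.744). Csf1r, the receptor of macrophage growth factor, averaged 10.22 and 11.24 (adjusted p = 0.435). Others were dim in both strains, such as Itgam (4.57 and 4.59) and Xcr1 (5.63 and 5.98). The mean over 11 B cell genes ranged from 7.66 to 7.81 in B6 and from 7.83 to 8.24 in NOD mice, and that over 17 thymocyte genes from 6.85 to 6.97 and from 6.84 to 7.51. No B cell gene passed, and of the thymocyte genes Cd3g, a chain of the T cell receptor complex, did (0.93). In such bulk samples a smaller share of cells of a type and less RNA per cell cannot be told apart.

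The largest difference was that of Zfp979, which encodes a zinc finger protein of a large, closely related family. It read 4.20, 4.13 and 3.49 in the B6 mice and 10.76, 10.48 and 10.21 in the NOD mice, a 93.4-fold difference (6.55 ± 0.19, SE; limma, Benjamini-Hochberg adjusted p = 2.89e-13). The B6 mice lay at the low end of the scale, as did the BALB WT mice with a mean of 4.15. Its neighbour Zfp982 read 5.40, 5.11 and 5.72 against 8.35, 8.35 and 7.88 in NOD mice (2.79), and another of its probe sets differed by 3.66. Zfp991, the next zinc finger gene, was lower in NOD mice by its brightest probe set (-1.30), while another probe set of it was higher by 1.72, so its direction depends on the probe set, and the first of these calls was lost without B6 mouse 2 or NOD mouse 1 or 2.

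Defa31, an antimicrobial peptide of Paneth cells in the small intestine, read 6.11, 6.34 and 6.14 in B6 and 10.53, 10.82 and 11.21 in NOD mice (4.66 ± 0.37). BALB WT mice, with a mean of 11.80, lay with the NOD mice. Ccnb1ip1, a regulator of meiotic crossovers, read 6.70, 6.30 and 6.32 against 11.22, 10.78 and 10.12 (4.27 ± 0.36), again with BALB near NOD. Ap1s3, a subunit of a vesicle adaptor complex, read 7.07, 5.89 and 7.09 against 10.12, 10.13 and 9.997 (3.40). For each of these genes the strains were separated by more than 2 log2 units, and the spread within a strain was smaller than that gap.

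Ang3, a secreted ribonuclease of the angiogenin family, lay near the bottom of the scale in B6 mice (4.10, 3.97 and 4.0) and at 6.97, 7.83 and 8.57 in NOD mice (3.77). E330020D12Rik, a transcript without a given function, read 5.19, 5.16 and 5.85 against 7.93, 9.78 and 10.42 (3.97). In both, NOD mouse 1 was the lowest of the NOD mice, as it was for the dendritic cell and macrophage markers. With the mean of those markers as a covariate the differences were 3.41 and 3.35 and still passed. Igkv8-30, a variable segment of the immunoglobulin kappa chain made by B cells, read 6.89, 7.42 and 7.08 against 9.28, 10.09 and 10.64 (2.87), and 1.69 with the B cell markers as a covariate. Plxnc1, a semaphorin receptor, read 7.09, 7.01 and 6.41 against 7.51, 10.46 and 10.15. Its difference of 2.53 was carried by NOD mice 2 and 3, and it no longer passed without either of them, without B6 mouse 2 or 3, or with the B cell covariate (1.43, adjusted p = 0.132).

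The remaining genes among the 15 largest higher differences were Tmsb10, an actin-binding thymosin (3.01), Zbed6, a repressor derived from a transposon (2.95), Tmem87a (2.87), Nefl, the light neurofilament (2.59), Irak1bp1, a partner of the kinase IRAK1 (2.47), and Cap1, an actin regulator (2.46). Tmsb10 rested on a wide spread in B6 mice, 9.66, 6.91 and 9.27 against 11.40, 11.84 and 11.64 in NOD mice, and of its 4 other probe sets 1 differed by 3.41 and 3 by 0.06 to 0.45. Nefl was higher by both of its probe sets (2.59 and 1.96). The other probe sets of Cap1 and Irak1bp1 differed less, by 0.98 and 0.87, and passed. That of Zbed6 differed by 0.29 and did not pass (limma adjusted p = 0.805). Between NOD KO and B6 KO mice, 4.90% of all genes were higher and 7.13% lower at the same threshold. Of the 15 genes, 14 also passed as higher in NOD KO mice, and 7 lay nearer to NOD and 8 nearer to B6 in BALB WT mice.

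**Figure D1:**
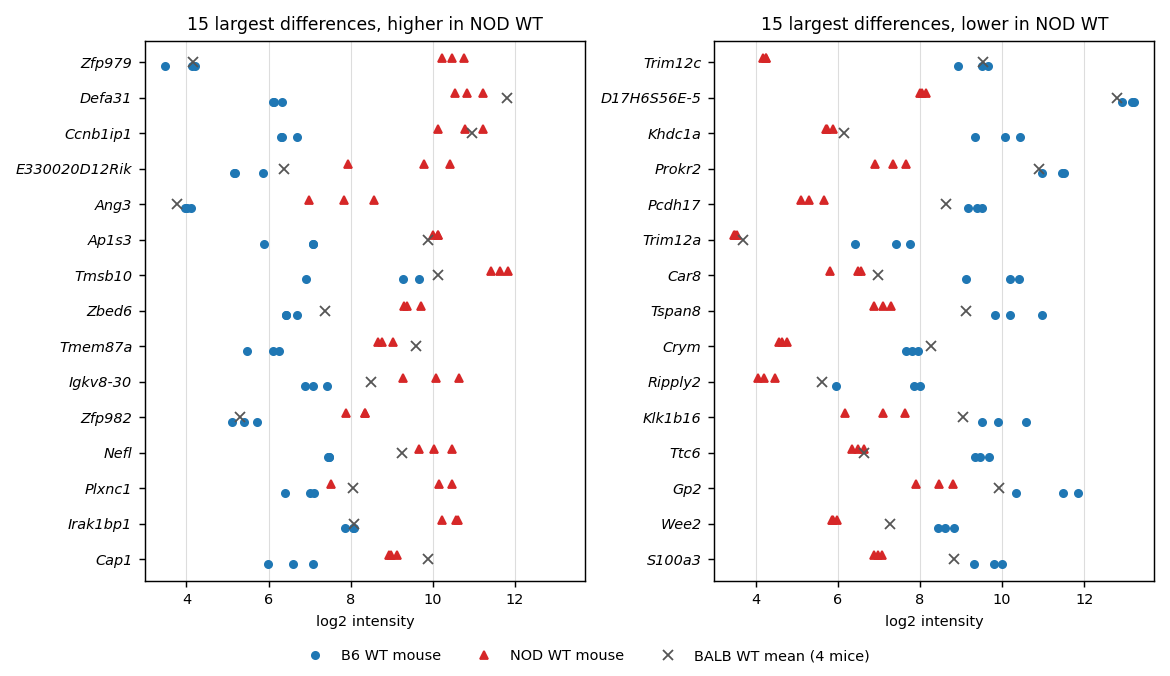
Log2 intensity (horizontal axis) of the 15 genes with the largest differences in each direction, 1 row per gene, with a circle for each B6 WT mouse, a triangle for each NOD WT mouse and a cross for the mean of 4 BALB WT mice. The mice of both strains are separated in every row, Zfp979 by the widest gap, and the BALB mean falls on either side.

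Among the genes lower in NOD mice, Trim12c and Trim12a stood out together. They belong to a cluster of TRIM ubiquitin ligases on chromosome 7 that includes the mouse relatives of primate TRIM5, an antiviral factor that acts on retroviral capsids. Trim12c read 8.93, 9.65 and 9.50 in the B6 mice and 4.17, 4.25 and 4.24 in the NOD mice, a 35.2-fold difference (-5.14 ± 0.17; limma, adjusted p = 2.23e-12). The NOD mice were near the lowest values on the arrays and the BALB WT mice, at 9.53, were not. Trim12a read 6.41, 7.75 and 7.42 against 3.53, 3.50 and 3.48 (-3.69 ± 0.29), and here BALB WT mice were as low as NOD mice, at 3.68.

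The next gene of the cluster moved the other way. Trim5 read 6.99, 7.31 and 7.66 in B6 and 8.29, 8.59 and 8.77 in NOD mice (1.23 ± 0.22), without overlap and above the BALB mean of 5.15. Trim6 was higher by 0.71 at an adjusted p of 0.0436 and no longer passed without B6 mouse 2 or 3 or any NOD mouse, or as the mean over its probe sets (0.30). Trim30a (-1.01), Trim34a (-0.73), Trim30d (-0.32) and Trim21 (-0.48) did not pass. The other probe sets of Trim12c and Trim12a, both dim, differed by -0.35 and -0.28 and did not pass. These genes are near copies of each other, so their probe sets may share signal, and whether the strains differ in the sequences under the probes was not tested.

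How alike the start regions of these genes are is shown by their promoters, 250 bases before to 50 after the start in RefSeq, build GRCm38.p6, the B6 reference. Capitals mark GAAA, any 2 bases and GAAA, read on either strand, the core of the element bound by interferon regulatory factors. The lines give Trim12c at chr7:104353300-104353599, Trim12a at chr7:104315446-104315745 and Trim5 at chr7:104288057-104288356, all on the minus strand, and Trim6 at chr7:104218545-104218844 on the plus strand, each 5′ to 3′.
Trim12c: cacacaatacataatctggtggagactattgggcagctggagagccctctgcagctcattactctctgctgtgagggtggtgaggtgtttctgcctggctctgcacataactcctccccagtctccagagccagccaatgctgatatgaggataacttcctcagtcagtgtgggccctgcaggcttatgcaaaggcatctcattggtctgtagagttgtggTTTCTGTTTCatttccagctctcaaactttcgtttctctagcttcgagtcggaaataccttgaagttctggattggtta
Trim12a: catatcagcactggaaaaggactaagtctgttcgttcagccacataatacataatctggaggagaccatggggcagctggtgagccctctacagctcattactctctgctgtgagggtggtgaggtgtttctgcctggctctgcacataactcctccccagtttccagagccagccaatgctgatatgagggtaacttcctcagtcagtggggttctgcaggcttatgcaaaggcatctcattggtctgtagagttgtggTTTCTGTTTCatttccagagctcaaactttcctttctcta
Trim5: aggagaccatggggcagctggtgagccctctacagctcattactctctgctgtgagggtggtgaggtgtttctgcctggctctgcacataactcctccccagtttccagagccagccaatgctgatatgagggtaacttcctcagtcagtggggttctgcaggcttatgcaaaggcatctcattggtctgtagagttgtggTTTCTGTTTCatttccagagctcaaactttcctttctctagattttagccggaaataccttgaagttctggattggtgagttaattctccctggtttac
Trim6: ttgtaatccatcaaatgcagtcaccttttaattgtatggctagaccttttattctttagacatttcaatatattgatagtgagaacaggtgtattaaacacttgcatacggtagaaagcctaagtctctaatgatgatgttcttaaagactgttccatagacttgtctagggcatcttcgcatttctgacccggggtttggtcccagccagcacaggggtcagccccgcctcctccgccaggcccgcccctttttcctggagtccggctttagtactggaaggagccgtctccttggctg
The promoters of Trim12a and Trim5 share an unbroken run of 241 bases, and that of Trim12c shares a run of 71 bases with each. Trim12c, Trim12a and Trim5 each hold the motif once, starting at base -29, 10 and -49 from the start site, and Trim6 does not hold it. Of 32851 promoters of this length in the RefSeq table, 1131 hold it on either strand (3.44%). Trim12a and Trim5, which share most of this sequence, differed between the strains in opposite directions. A match is a description of the letters only, and NOD sequence was not used.

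D17H6S56E-5 was the second among the genes lower in NOD mice by size of the difference. It read 13.22, 13.16 and 12.93 in B6 mice, near the top of the scale, and 8.05, 8.16 and 7.99 in NOD mice (-5.03 ± 0.11), and its other probe set differed by -6.62. Prokr2, a receptor of the prokineticin peptides, read 11.46, 10.98 and 11.51 against 7.35, 7.66 and 6.90 (-4.01), and its other probe set by -4.48. Pcdh17, a neuronal adhesion molecule, read 9.16, 9.38 and 9.51 against 5.65, 5.30 and 5.09 (-4.0), and its other probe set by -2.17. BALB WT mice were near the B6 mice for all of these, with means of 12.80, 10.89 and 8.63.

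Khdc1a, an RNA-binding protein known from oocytes, read 9.33, 10.44 and 10.06 in B6 and 5.74, 5.72 and 5.89 in NOD mice (-4.17). Ttc6, a tetratricopeptide repeat protein, read 9.34, 9.46 and 9.67 against 6.35, 6.49 and 6.63 (-3.0). BALB WT mice lay with NOD mice for both, at 6.14 and 6.63; the other probe set of Ttc6 was at the bottom of the scale in both strains and did not pass (adjusted p = 0.990).

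Car8, a carbonic anhydrase without enzyme activity (-3.62), the tetraspanin Tspan8 of gut epithelium (-3.23), and Gp2, the main membrane protein of pancreatic secretory granules (-2.84), are genes that BALB KO mice expressed less than BALB WT mice (-1.87, -1.68 and -2.59). Other probe sets of Car8 differed by -2.01, which passed, and by -0.29, which did not. Those of Tspan8 differed by -1.85 to -0.16. Gp2 read 10.33, 11.85 and 11.48 in B6 and 7.90, 8.80 and 8.45 in NOD mice, without overlap. Crym, a thyroid hormone-binding protein (-3.16), Ripply2, a repressor of somite formation (-3.03), the kallikrein protease Klk1b16 (-3.02), the oocyte kinase Wee2 (-2.73) and the calcium-binding protein S100a3 of hair (-2.72) completed the 15. All 15 passed with the same sign in KO mice. Among the 30 genes, 12 higher and 13 lower ones passed with the run of sample codes as a fixed term. Tmsb10 (0.39, adjusted p = 0.962), Plxnc1 (0.70, 0.748), Igkv8-30 (2.60, 0.101), Tspan8 (-2.53, 0.0554) and Gp2 (-2.19, 0.123) did not. The NOD KO and B6 KO mice numbered 1, the only KO mice of both strains in a shared run, differed in the direction of the WT mice for 30 of 30 of these genes. Of the 273 named genes called, 248 had this direction and 25 the opposite. For this pair the share over all genes was not taken. Over all probe sets, 74.5% had the same sign between the KO groups. Both mice are part of the KO comparison given above, so the pair is not a separate check.

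Genes of peripheral organs were, as lists, mostly lower in NOD mice. Of 29 intestinal genes 12 were lower and none higher, with a median difference of -0.82 against -0.01 over all genes. Of 20 genes of salivary and lacrimal glands 8 were lower and 1 higher (median -0.75). Of 21 genes of exocrine pancreas 5 were lower and none higher (-0.49), of 33 liver genes 8 were lower and 3 higher (-0.40), and of 14 lung genes 4 were lower and 1 higher (-0.53). Over all genes 6.30% were lower and 2.40% higher, and these are the shares to set beside each list count that follows. With the run of sample codes as a fixed term 4 intestinal, 2 salivary, 2 pancreatic, 0 liver and 1 lung genes were lower. With the 6 WT arrays alone these counts were 7, 6, 3, 6 and 1.

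**Figure D2:**
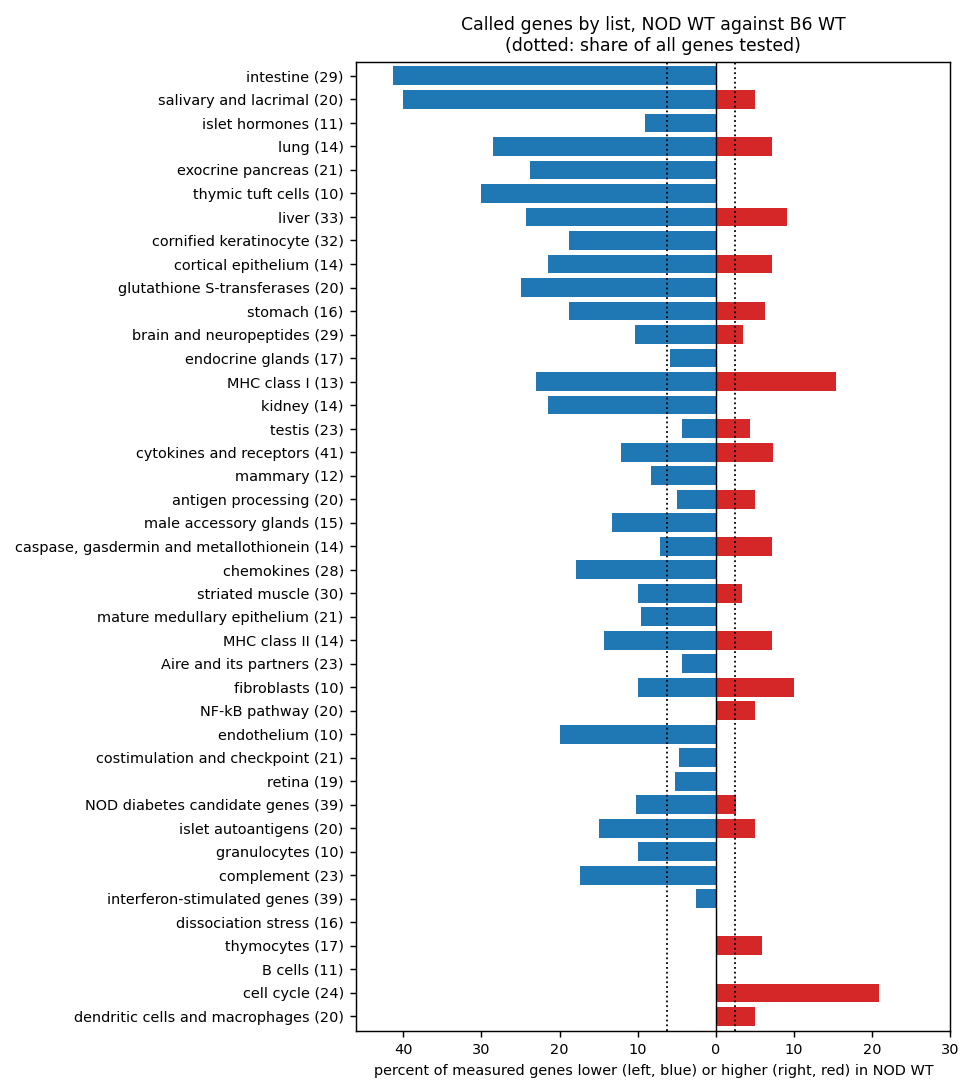
Percent of the measured genes of each list that were lower (left) or higher (right) in NOD WT mice, for lists with 10 or more measured genes (number in brackets) other than the strain marker genes, ordered by median difference; dotted lines mark 6.30% and 2.40%, the shares over all genes. Intestinal and salivary and lacrimal genes reach furthest to the left and cell cycle genes furthest to the right.

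Among the intestinal genes, Clca1, a secreted regulator of goblet cell mucus, read 7.40, 9.82 and 8.84 in B6 and 6.22, 6.50 and 6.79 in NOD mice (-2.18). Vil1, which bundles actin in microvilli, read 9.05, 9.40 and 9.59 against 7.45, 7.70 and 7.88 (-1.67), and Reg3g, an antibacterial lectin, 12.88, 13.28 and 13.23 against 11.38, 11.41 and 11.86 (-1.58). In each the strains did not overlap, as for 1558 of the 1583 genes called in all. Gip, an incretin hormone (-1.52), Muc13, a membrane mucin (-1.32), and Nts, the peptide neurotensin (-1.30), were lower too. Slc5a1, a glucose transporter (-0.89), lost its call without B6 mouse 2 or NOD mouse 1. Apoa4 (-1.19), Krt20 (-0.95), Cdh17 (-0.91) and Tff3 (-0.82) each lost it without 4 or 5 of the 6 mice in turn. Spink1, a trypsin inhibitor counted in the intestinal and pancreatic lists, read 11.15, 10.66 and 11.89 against 8.91, 9.28 and 10.001 (-1.84). Of the 12, 7 were also lower in NOD KO than in B6 KO mice.

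Of the 20 salivary and lacrimal genes 11 were not called in WT mice, and most of those lower there did not pass in KO mice. Mucl1, a mucin-like secretory protein, read 9.16, 9.59 and 9.22 in B6 and 6.81, 7.02 and 7.65 in NOD mice (-2.16), and the difference between KO mice was -0.61 (adjusted p = 0.388). Dcpp3, a demilune cell protein, read 9.34, 8.77 and 9.73 against 7.19, 7.14 and 7.21 (-2.10), with 0.10 in KO mice. Bpifa2, a lipid-binding salivary protein, read 8.89, 8.33 and 8.80 against 6.42, 7.16 and 7.29 (-1.72), with -0.07 in KO mice. Car6, the secreted carbonic anhydrase of saliva, read 8.73, 9.13 and 9.41 against 7.39, 7.49 and 7.69 (-1.57), with -0.15 in KO mice. NOD and B6 WT mice did not overlap for any of the 4, as for 1558 of the 1583 genes called in all.

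Obp1a, an odorant-binding protein of lacrimal and nasal glands (-1.56), the kallikreins Klk1b5 (-1.53) and Klk1b1 (-1.19), and Scgb2b27, a secretoglobin (-0.96), were lower as well. Dcpp1, a relative of Dcpp3, was higher (1.22). Of the 8 lower genes, 1 also passed as lower in KO mice, and 7 did not pass there. The test of the difference between both genotypes passed for Dcpp3 alone (-2.20 ± 0.28, adjusted p = 0.00205), so for the other genes a dependence on Aire was not shown. Dcpp3 and Bpifa2 were the members that passed with the run of sample codes as a fixed term.

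In exocrine pancreas, Gp2, Spink1 and Reg3g were lower in KO mice too (-2.53, -1.92 and -1.65), while Reg3a (-0.67 in WT mice) and Cel, the bile salt-activated lipase (-0.59), did not pass there. The test of the difference between both genotypes did not pass for any of the 5. Cel lost its call without B6 mouse 2 or 3 or any NOD mouse. In the liver list, Ttr, a carrier of thyroid hormone and retinol, read 10.42, 9.90 and 10.33 in B6 and 7.43, 7.86 and 8.83 in NOD mice (-2.18). Apoc3, an apolipoprotein of triglyceride-rich particles (-1.61), and Saa1, an acute phase protein (-1.57), were lower. Apoa4, Saa3 (-1.10), Fgg, a fibrinogen chain (-1.0), Apoa1 (-0.84) and Ambp (-0.76) were lower at adjusted p values between 0.0104 and 0.0432. Ambp lost its call without B6 mouse 2, Saa3 without B6 mouse 3 or NOD mouse 2, Fgg without B6 mouse 2 or NOD mouse 1 or 3, and Apoa4 and Apoa1 without 4 or 5 of the mice in turn. Higher in NOD mice were Serpina3n, a protease inhibitor, at 8.05, 7.87 and 7.81 against 6.24, 6.56 and 6.21 (1.57), Crp (1.20) and Apoh (1.19). Apoh had the opposite sign between KO mice (-1.07). Crp lost its call without B6 mouse 2, NOD mouse 1 or NOD mouse 2.

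Lung genes followed the same pattern. Sftpd, surfactant protein D, read 9.51, 9.99 and 10.55 in B6 and 8.4, 8.58 and 8.93 in NOD mice (-1.38), and Scgb3a2, a secretoglobin, was lower by 0.91 on the log2 scale (-0.91). Scgb1a1, the club cell secretoglobin (-1.20), Bpifb1 (-0.91) and the higher Napsa, an aspartic protease (1.15), each lost the call without NOD mouse 2 and without 3 other mice in turn. Of 16 stomach genes 3 were lower, the gastric lipase Lipf (-1.19), the trefoil peptide Tff2 (-0.79) and the mucin Muc5ac (-0.76), and Cblif, the gastric intrinsic factor, was higher (0.55). Tff2 lost its call without B6 mouse 3, and the other 3 without 4 or 5 of the mice in turn. Of 23 complement genes 4 were lower, led by Cfi, the factor I protease, at 8.83, 8.84 and 8.78 against 7.03, 7.12 and 7.19 (-1.70). C8g (-0.93), Cd55 (-1.01) and C9 (-0.47) were the others, and Cd55 and C9 lost their calls without 4 or 5 of the mice in turn; with the replicate number as a block C9 had an adjusted p of 0.0505 in limma.

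Of 32 genes of cornified keratinocytes, the dead outer layer of skin, 6 were lower in NOD mice and none higher (median -0.22). Flg, the filaggrin of the skin barrier, read 8.95, 10.18 and 9.86 in B6 and 6.47, 7.29 and 7.77 in NOD mice (-2.49). The calmodulin-like Calm4 (-1.61), the protease inhibitor Spink5 (-1.58), Dmkn (-1.27), Sbsn (-1.23) and the cornified envelope protein Sprr1a (-0.83) completed the count. Without B6 mouse 2, B6 mouse 3 or NOD mouse 1, only Calm4 of these 6 genes kept its call. The same holds with the mean over the B cell markers, which was higher in each NOD mouse, as a covariate: the list then had 1 gene lower and 3 higher. None passed with the run of sample codes as a fixed term.

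Lists of other organs had medians nearer to that of all genes. Of 29 brain genes and neuropeptides 3 were lower and 1 higher (median -0.15), of 30 genes of striated muscle 3 were lower and 1 higher (-0.04), of 23 testis genes 1 was lower and 1 higher (-0.10), of 19 retina genes 1 was lower (0.06), and of 14 kidney genes 3 were lower (-0.13). In muscle, Tnnt2, the cardiac troponin T, was lower with each mouse left out in turn (-1.29). The myosin heavy chain Myh4 (-1.15) and Nppa, the atrial natriuretic peptide (-0.85), lost their calls without B6 mouse 3 or NOD mouse 2, and Myh7, the slow myosin (1.02), without any single one of the 6 mice.

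Islet genes are given because NOD mice develop autoimmune diabetes, and a link of their levels to the disease was not tested. Ins2, the insulin gene expressed in the thymus, read 8.60, 8.31 and 8.62 in the B6 mice and 7.37, 7.61 and 7.87 in the NOD mice (-0.89 ± 0.18; adjusted p = 0.00539), without overlap, a 1.86-fold difference. BALB WT mice averaged 7.92, between the strains, and the difference between KO mice was -0.04 (adjusted p = 0.93), though the test of the difference between both genotypes did not pass (adjusted p = 0.432). Ptprn2, the tyrosine phosphatase-like autoantigen of insulin granules, read 9.44, 9.34 and 9.51 against 8.92, 8.33 and 8.15 (-0.96), and Ica1, an islet cell autoantigen, 7.97, 8.20 and 8.06 against 7.62, 7.32 and 7.31 (-0.66). Both were lower in KO mice too (-1.05 and -0.84). With the run of sample codes as a fixed term Ins2, Ptprn2 and Ica1 did not pass (adjusted p = 0.522, 0.697 and 0.971), and with the 6 WT arrays alone Ptprn2 and Ica1 did not (0.0631 and 0.0509). Chga, chromogranin A, a target of diabetogenic T cells, read 8.22, 8.35 and 8.55 against 9.02, 8.69 and 8.91 (0.50), lost its call without B6 mouse 1 or 2 or NOD mouse 1 or 3, and differed more in KO mice (1.78). Of 20 islet autoantigens 3 were lower and 1 higher, and of 11 islet hormone genes Ins2 alone was called. The shares over all genes were 6.30% lower and 2.40% higher.

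Of 39 candidate genes of NOD diabetes, 4 were lower and 1 higher, against 6.30% lower and 2.40% higher over all genes. Ctla4, an inhibitory receptor of T cells, read 7.38, 7.94 and 7.91 in B6 and 6.94, 6.39 and 6.76 in NOD mice (-1.05), and differed by -3.22 in KO mice. Il10, an inhibitory cytokine, read 8.06, 8.37 and 8.76 against 7.01, 7.03 and 7.12 (-1.35). Glis3, a transcription factor of beta cells (-1.24), lost its call without B6 mouse 3. Tnfrsf1b, a receptor of tumour necrosis factor, was higher at 7.71, 8.80 and 8.49 against 7.07, 7.33 and 7.10 (1.17). Ins2 was the remaining member.

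The MHC genes carry different alleles in B6 and NOD mice. Of 13 class I genes 3 were lower and 2 higher, against 6.30% lower and 2.40% higher over all genes. H2-Q10, a secreted class I chain, read 8.30, 9.06 and 9.19 in B6 and 6.81, 6.90 and 7.02 in NOD mice (-1.94), and H2-Q2, 9.85, 9.56 and 10.23 against 8.48, 8.86 and 8.94 (-1.12). H2-T3, the thymus leukaemia antigen, was higher at 8.32, 8.39 and 8.73 against 7.60, 7.47 and 7.05 (1.11). H2-M9 (-0.61) and H2-M3 (0.53) each lost the call without B6 mouse 2, NOD mouse 1 or NOD mouse 3, and H2-M9 also without B6 mouse 3 or NOD mouse 2. Class I genes are near copies of each other, so their probe sets may share signal.

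Of 14 class II genes, H2-Ob was higher, and H2-Oa and H2-Ab1 were lower, against 2.40% higher and 6.30% lower over all genes. H2-Ob and H2-Oa, which together form the DO dimer that tempers peptide loading, moved in opposite directions: H2-Ob read 10.45, 10.28 and 10.60 against 11.71, 11.30 and 11.28 (0.99), and H2-Oa 10.97, 11.62 and 11.62 against 10.69, 10.27 and 10.64 (-0.87). H2-Oa lost its call without B6 mouse 2 or 3 or NOD mouse 2. In antigen processing, Tapbp, which holds class I chains at the peptide transporter, read 12.35, 12.40 and 12.38 against 11.18, 11.50 and 11.55 (-0.96), and Tap2, a subunit of that transporter, 8.94, 9.03 and 8.95 against 9.94, 9.86 and 9.49 (0.79). Both had the same sign and passed in KO mice (-0.96 and 0.68), and both passed with the run of sample codes as a fixed term. The other 18 genes of antigen processing, among the 20 measured, did not pass.

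Of 28 chemokines 5 were lower in NOD mice and none higher. For these and the cytokine genes, the shares over all genes were 6.30% lower and 2.40% higher. Ccl20, which draws CCR6-bearing cells, read 9.64, 10.61 and 10.16 in B6 and 8.50, 8.77 and 8.54 in NOD mice (-1.54), and Ccl9, a macrophage chemokine, 11.14, 11.18 and 11.82 against 9.50, 9.82 and 10.04 (-1.59). Ccl25, which draws thymocyte precursors, read 10.81, 11.74 and 11.29 against 10.39, 10.01 and 9.85 (-1.20). Cxcl5 (-2.25) lost its call without B6 mouse 2 or NOD mouse 3, and Ccl6 (-1.83) without B6 mouse 2 or 3 or NOD mouse 1 or 2. Of 41 cytokine genes and receptors, Ifng (-2.0), Il10, Il1r1 (-1.27), Tgfb3 (-0.88) and Csf2 (-0.80) were lower and Tnfrsf1b, Il6ra (0.91) and Il2ra (0.52) higher. Ifng lost its call without B6 mouse 1 or 3 or NOD mouse 1, and Il6ra and Il2ra without B6 mouse 1 or 2 or NOD mouse 1 or 2.

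Interferon-stimulated genes stayed near the background: of 39, Ifit1 was lower (-0.67) and none was higher, with a median of 0.15, and Ifit1 lost its call without B6 mouse 3 or NOD mouse 2 or 3. Of 23 genes of Aire and its partners, Atf7ip was lower (-1.08). Its other probe sets differed by -0.06 (8.91 in B6 and 8.85 in NOD mice) and -0.14 and did not pass. Atf7ip also did not pass with the 6 WT arrays alone or with the run of sample codes fixed (limma adjusted p = 0.0584 and 0.584). Of 10 genes of thymic tuft cells, chemosensory cells of the medulla, 3 were lower: the channel Trpm5, at 8.07, 9.05 and 8.83 against 6.94, 6.88 and 6.80 (-1.78), the actin regulator Avil (-1.54) and the lipoxygenase Alox5 (-0.64). The mean over the tuft cell list ranged from 7.21 to 7.56 in B6, from 6.72 to 6.86 in NOD and from 7.46 to 8.10 in BALB WT mice, so the NOD mice lay below both other strains. Alox5 lost its call without B6 mouse 2 or 3 or NOD mouse 1 or 2, and none of the 3 passed with the run of sample codes as a fixed term.

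Cell cycle genes were the list with the most members higher, 5 of 24 with none lower and a median of 0.49. The share higher over all genes was 2.40%. Rrm2, a subunit of ribonucleotide reductase, read 9.46, 8.58 and 9.18 in B6 and 10.87, 10.85 and 10.81 in NOD mice (1.77). Ccnd1, the G1 cyclin D1, read 8.58, 8.31 and 8.58 against 10.05, 9.58 and 9.995 (1.38), and the replication helicase genes Mcm5 (1.25), Mcm4 (0.98) and Mcm2 (0.60) were higher too. All 5 were also higher in KO mice. The mean over the list was 8.28 to 8.30 in B6 and 8.82 to 8.92 in NOD mice and ranged from 7.72 to 8.77 in BALB WT mice. B6 mouse 2 had the lowest Rrm2, Mcm5 and Mcm4 values, and without it these 3 no longer passed; Mcm5 also lost its call without any single NOD mouse and Mcm4 without NOD mouse 3. The other probe sets of Ccnd1 differed by 0.50 and -0.25 and did not pass, and as the mean over their probe sets Ccnd1 and Mcm2 did not pass (adjusted p = 0.0559 and 0.0897). The mean over the B cell markers was higher in each NOD mouse than in each B6 mouse, and with it as a covariate Rrm2 and Mcm5 did not pass (adjusted p = 0.0576 and 0.0764). None of the 5 passed with the run of sample codes as a fixed term, and with the 6 WT arrays alone Rrm2, Ccnd1 and Mcm2 did.

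Some of the genes that differed lay side by side. Of 622 genes called 2-fold or more with a position in RefSeq, 140 fell into 40 groups of 3 or more. Each member of a group lay within 5 measured genes of the next. In 21 groups all members had the same direction, lower in NOD mice; over all genes 472 were lower and 152 higher by 2-fold or more. How many such groups chance gives was not tested. Of the 8 measured genes of the Klk1b kallikrein span, proteases of salivary gland that are near copies of each other, 6 were lower in NOD mice by 2-fold or more. Klk1b16 read 9.50, 9.91 and 10.58 in B6 and 6.18, 7.10 and 7.63 in NOD mice. Klk1b5 (-1.53), Klk1b27 (-1.53), Klk1b11 (-1.36), Klk1b8 (-1.32) and Klk1b1 (-1.19) followed. Klk1b27 lost its call without B6 mouse 1 or 3 or NOD mouse 1 or 2.

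Skin barrier genes of the epidermal differentiation region also lay side by side. All 4 measured of Flg, Hrnr (-1.90), Rptn (-2.55) and Tchh (-1.12), large proteins of the cornified layer and hair follicle, were lower. Rptn read 10.92, 11.82 and 11.61 against 8.75, 8.78 and 9.16, Flg lost its call as given above, and Hrnr lost its call without B6 mouse 2 or 3 or any NOD mouse. The adjacent calcium-binding genes S100a1 (-1.31), S100a13 (-1.05), S100a14 (-1.35), S100a16 (-1.48) and S100a3 were lower, 5 of 5 measured in their span, without overlap and with each mouse left out. All 5 were also lower in KO mice, and all 5 passed with the run of sample codes as a fixed term.

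A group of 6 genes, all of those measured in its span, joined the glutathione transferases Gsta2 (-2.26) and Gsta4 (-1.98) with the oocyte and stem cell genes Omt2a (-2.16), Omt2b (-1.87), Ooep (-1.35) and Dppa5a (-1.04). Gsta2 read 10.69, 10.86 and 11.08 in B6 and 8.17, 8.63 and 9.04 in NOD mice. Omt2a, Omt2b and Dppa5a did not pass in KO mice (adjusted p = 0.92, 0.92 and 0.997), while Gsta2, Gsta4 and Ooep did (-1.86, -1.35 and -0.96). Omt2a was near the bottom of the scale in KO mice of both strains (3.19 in B6 and 3.12 in NOD). Of 20 glutathione transferases 5 were lower, the others being Gsta3 (-1.08), Gstt3 (-0.88) and Gstt1 (-0.86); Gsta3 and Gstt1 lost their calls without B6 mouse 3 or NOD mouse 1, and Gsta3, whose mice overlapped between the strains, also without B6 mouse 1 or NOD mouse 2.

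Enzymes that conjugate steroids and foreign compounds formed a further group, with the glucuronosyltransferases Ugt2b5 (-2.49), Ugt2b35 (-1.56) and Ugt2b34 (-1.45) and the sulfotransferases Sult1b1 (-1.92) and Sult1e1 (-1.03), 5 of 11 measured in the span. Sult1b1 read 6.69, 6.93 and 6.84 in B6 and 4.76, 4.87 and 5.08 in NOD mice. None of these 5 passed in KO mice, where the differences ran from -0.65 to -0.19, and the genotype difference passed for none. The retinol and steroid dehydrogenases Rdh7 (-2.34), Sdr9c7 (-1.53) and Hsd17b6 (-2.01), the lipases Lipf, Lipk (-1.36) and Lipm (-1.82) with Ankrd22 (-1.20), and the carboxylesterases Ces2a (-1.71), Ces2e (-1.82) and Ces2f (-1.10) were lower as groups too. Sult1e1 lost its call without B6 mouse 2 or NOD mouse 2.

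**Figure D3:**
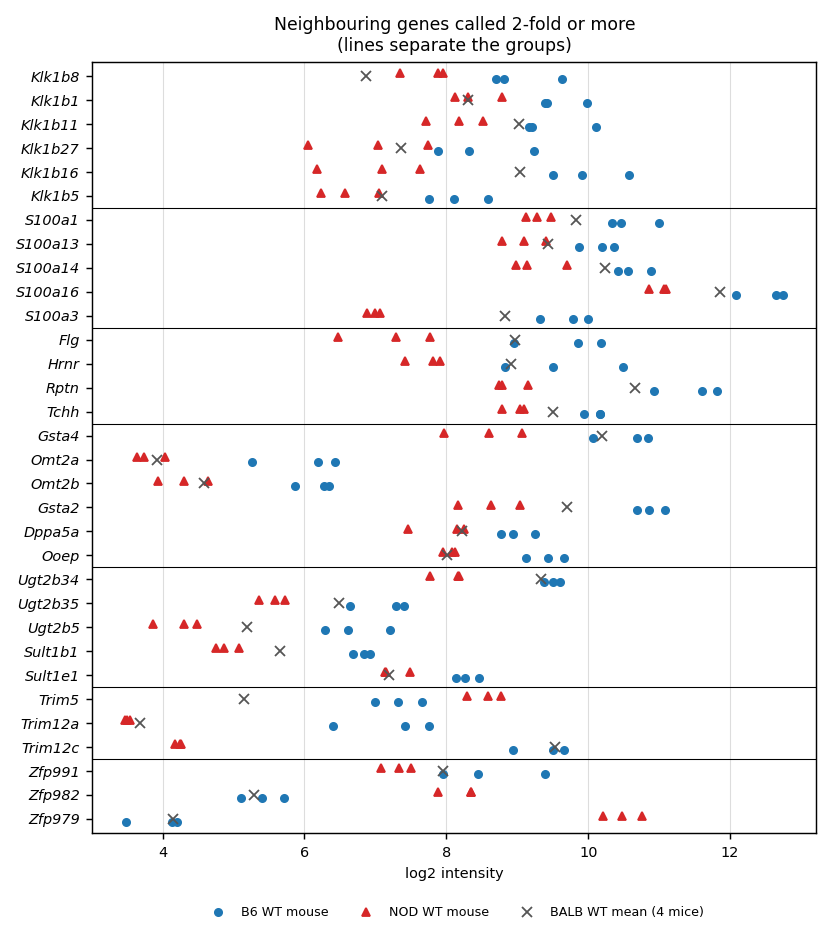
Log2 intensity (horizontal axis) of neighbouring genes that differed 2-fold or more, with a circle for each B6 WT mouse, a triangle for each NOD WT mouse and a cross for the mean of 4 BALB WT mice; lines separate the groups of Klk1b8, S100a1, Flg, Gsta4, Ugt2b34, Trim5 and Zfp991. In the first 5 groups all NOD mice lie to the left of the B6 mice of the same gene, and in the Trim and Zfp groups neighbours differ in opposite directions.

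Some genes known from blood cells were higher in NOD mice. Cxcr4, a chemokine receptor of thymocytes and other leukocytes, read 5.76, 5.18 and 5.45 in B6 and 7.06, 8.0 and 8.58 in NOD mice (2.42). Cytip, an adaptor of leukocytes, read 10.80, 10.41 and 10.51 against 11.30, 12.92 and 12.84 (1.78), and Nckap1l, a leukocyte actin regulator, 9.20, 8.43 and 8.93 against 9.49, 10.60 and 10.98 (1.5). NOD mouse 1 was the lowest of the NOD mice in all 3, as for the dendritic cell and macrophage markers. With those markers as a covariate the differences were 2.02, 1.39 and 1.06 and passed. With the B cell markers they were 1.83, 1.0 and 1.05, and Cytip and Nckap1l did not pass (adjusted p = 0.119 and 0.122). Both also lost their calls without B6 mouse 2 or 3 or NOD mouse 2 or 3.

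Most strain differences had the same sign in mice without Aire. KO mice 2 and 3 of each strain lie in the same run of sample codes as the WT mice 2 and 3 of that strain, so the KO mice share the tie between strain and run. Of 3172 probe sets called in WT mice, 94.6% had the same sign between the 3 NOD KO and the 3 B6 KO mice, against 73.0% of those not called, and 59.8% passed there with the same sign. Passing with the opposite sign was seen for 4. WT and KO mice of the same strain and replicate number were correlated (consensus 0.471), so the KO mice are not an unlinked check. With strain and number as a random block, 95.2% of the probe sets called in that fit had the same sign. The test of whether the strain difference itself depended on the genotype passed for 49 genes (0.269%). Khdc1a was among them, with -4.17 in WT and -1.68 in KO mice (-2.49 ± 0.32, adjusted p = 0.00205). Gatm, which makes the creatine precursor guanidinoacetate, read 9.90, 9.79 and 9.55 in B6 and 7.08, 8.24 and 7.78 in NOD WT mice (-2.05), with 0.85 in KO mice. Spx, a peptide hormone precursor, read 7.35, 6.75 and 7.67 against 5.21, 5.17 and 5.27 (-2.04), with -0.04 in KO mice.

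**Figure D4:**
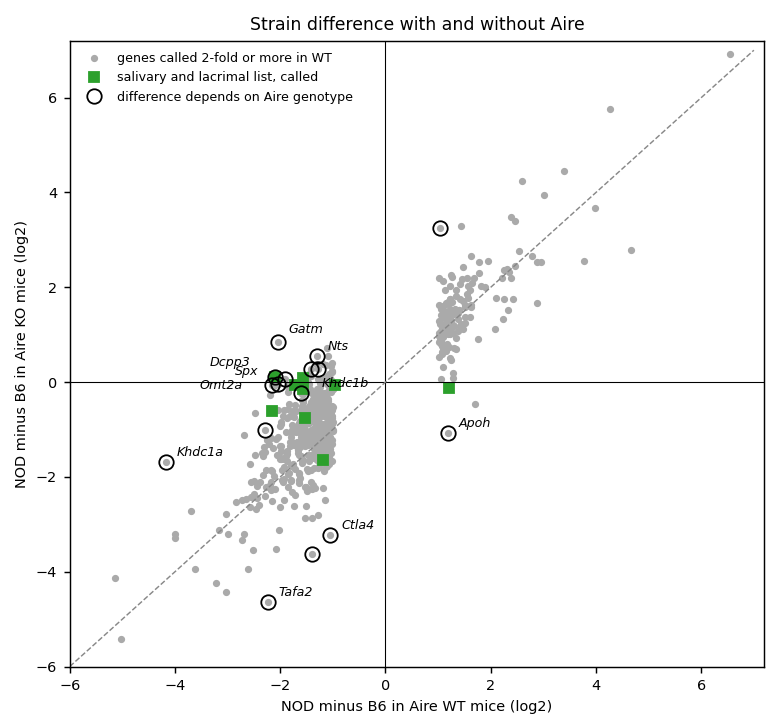
NOD minus B6 difference in Aire WT mice (horizontal axis, log2) against that in Aire KO mice (vertical axis, log2) for genes called 2-fold or more in WT mice, with called salivary and lacrimal genes as squares and genes whose difference depended on the genotype ringed; the dashed line marks equal differences. Most genes lie near the dashed line, while Dcpp3, Spx, Omt2a and Khdc1b lie near 0 in KO mice.

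The BALB WT mice placed these differences among 3 strains. Of the 385 probe sets higher in NOD mice by 2-fold or more, the BALB mean lay nearer to the NOD mean for 220 and nearer to the B6 mean for 165. Of the 876 lower ones it lay nearer to NOD for 418 and nearer to B6 for 458. Neither strain was thus the one that stood apart for most probe sets: Trim12a and Khdc1a were low in BALB and NOD mice alike, while Prokr2 and Pcdh17 were low in NOD mice alone of the 3 strains' means.

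Probe sets that depend on Aire were chosen by the difference between BALB KO and BALB WT mice. They passed the adjusted p threshold and were 2-fold or more lower in BALB KO mice. Passing used the spread pooled over all arrays, NOD and B6 included, and the strain calls used the same spread. Such a choice can favour probe sets of low spread. The shares called are therefore not a fair contrast with those over all probe sets. Of the 828 probe sets, 151 were lower in NOD than in B6 WT mice (18.2%) and 28 were higher (3.38%), with a median of -0.26 against 0.02 over all probe sets. These are brighter than most, and among all probe sets with a mean of log2 7 or more over both groups 7.43% were lower and 3.32% higher. Between KO mice of the strains, 60 were lower and 58 higher, with a median of 0.06. The median level of the set was 7.68, 7.58 and 7.70 in the B6 WT mice and 7.26, 7.40 and 7.44 in the NOD WT mice. Each NOD mouse lay below each B6 mouse, and an exact two-sided permutation test over the mice gave p = 0.10, the smallest that 3 against 3 mice allow (difference of the means -0.29). In KO mice the means were 5.81 in NOD and 5.79 in B6 (exact permutation p = 0.70). In BALB WT mice the medians ran from 7.35 to 7.72, across the range of both strains.

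The median difference of KO from WT mice over the set was -1.79 in B6 and -1.33 in NOD mice. Both values rest on the same WT mice as the strain difference, so they are not independent of it. The 165 probe sets that were 2-fold or more higher in BALB KO mice had 45 lower and 5 higher in NOD WT mice (median -0.33), against 4.51% and 2.53% of all probe sets, and in KO mice 80 were lower (median -0.79). The rising set was chosen with the same pooled spread and is bright too, with a median of 8.11 in B6 WT mice. Among all probe sets at log2 7 or more, 7.43% were lower and 3.32% higher. Lower values in NOD WT mice were measured for both sets, but the sets were unlike between KO mice. There the falling set had a median of 0.06 and the rising set -0.79.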

How the data were processed

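Expression of sorted thymic epithelial cells had been measured on Affymetrix arrays, 1 per mouse. The deposited table holds linear intensity values of 45101 probe sets, made by the authors with RMA per the submitters' processing notes, for which the sources used here name no version. Intensities were used as log2 without further scaling, and 64 control probe sets were left out. The median intensity of the 6 arrays ranged from 88.0 to 90.9, and the number of arrays limits the precision.

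One mean per strain and genotype was fitted to all 20 arrays in limma 3.58.1 (R 4.3.3) with 14 residual degrees of freedom and tested two-sided with Benjamini-Hochberg adjustment over 45037 probe sets. GEO's platform annotation gave 1 symbol to 34945 probe sets, several to 932 and none to 9160; no symbol changed on matching to RefSeq. Each gene was represented by its brightest probe set. Named are the 15 largest differences in each direction, without overlap between the strains and with the higher group's mean log2 at 7 or more. Also named are called members of gene lists, groups of neighbouring genes, and the 4 largest dependences on genotype in each direction. Genes picked beforehand to check the labels are named too. The gene lists and members were chosen with earlier results of these data known.

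The labels number the replicates 1 to 3 in each group without saying what a number shares. Deviations of NOD and B6 mice of the same number correlated at 0.15, 0.14 and 0.25, and other pairs from -0.15 to -0.02, so the numbers were treated as possible pairs, and the fit with them as a block was an alternative. WT and KO mice of the same strain and number had a consensus correlation of 0.471 in limma. The main fit, with its test of the difference between genotypes, did not use this link. Arrays correlated at 0.950 to 0.991, so no pair was identical. Promoters came from the RefSeq table of build GRCm38.p6. Other alternatives were scaling, filters, array weights, covariates, the run of sample codes and each mouse left out. The fit was tested on simulated data.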

Additional observations from a re-analysis of the deposited data

Results flagged for a closer look

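The strain difference in Aire WT mice differed from that in Aire KO mice, by limma's test of the difference itself, for 49 genes, and those named by the rule or already described are given here as the WT difference minus the KO difference. Each rests on 3 mice per group, and the causes were not tested. Among secreted and glandular genes, Dcpp3 had -2.20 (-2.10 in WT and 0.10 in KO mice), the gut peptide gene Nts -1.85 (-1.30 and 0.55), Spx -2.0 (-2.04 and -0.04) and Gatm -2.89 (-2.05 and 0.85). The oocyte genes Khdc1a, Khdc1b and Omt2a had -2.49, -1.69 and -2.09. Omt2a read 3.80 in NOD WT, 3.19 in B6 KO and 3.12 in NOD KO mice, near the bottom of the scale, which limits its value. Apoh, a plasma glycoprotein, passed in both genotypes with opposite signs, 1.19 in WT and -1.07 in KO mice, a difference of 2.26.

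Other genes differed more between strains without Aire. Chga had -1.28 (0.50 in WT and 1.78 in KO mice), Fabp6, the bile acid-binding protein of ileum, -2.85 (0.85 and 3.70) and Muc15, a membrane mucin, -2.23 (0.91 and 3.14). Ctla4 had 2.17 (-1.05 and -3.22), and Tafa2, a secreted peptide of brain, 2.40 (-2.23 and -4.63). The transcripts 4833422C13Rik, 1700110I01Rik and 1700003P14Rik had 2.44, 2.24 and 2.23. In NOD mice 4833422C13Rik (3.12 in WT and 3.11 in KO) and 1700003P14Rik (3.62 and 3.80) read near the bottom of the scale, which limits their values.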

How the results depend on the processing

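The main counts were 3172 probe sets called, 1261 called 2-fold or more and 137 list genes called. The 6 WT arrays alone gave 1355, 823 and 72. The run of sample codes as a fixed term, a fit that leaves out B6 mouse 1, gave 553, 528 and 28. As a random term, with all arrays, it gave 2073 called. Array weights gave 6244 called and 225 list genes, and the Gapdh ratio as a covariate 6271 called. Leaving out 1 mouse gave 1973 to 3389 called, 1028 to 1558 called 2-fold or more and 97 to 143 list genes. Of the 2-fold calls 69.5% were lower, 59.7% with the run fixed and 58.5% with the B cell covariate. The replicate numbers as a block gave 4595, 1390 and 182, as a random block within strain 3455, 1341 and 145, and as a block in the 6 WT arrays, chosen after seeing the data, 1077, 814 and 81. Of the 273 named calls, the replicate block on all arrays ended 2, C9 and Clec2d (adjusted p = 0.0505 and 0.0527 in limma), the random block within strain 8 and the block in the 6 WT arrays 114.

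The share with the same sign in KO mice, 94.6%, was 59.8% when a call was required there, 93.7% with 12 arrays, 96.3% without dim probe sets, 90.6% with array weights, 98.0% with the run fixed, 95.8% with the dendritic cell covariate, 97.2% with the B cell covariate, which was chosen after seeing the data, and 91.8% to 95.8% without 1 mouse. The Aire-dependent set's median, -0.26, was -0.35 at a 4-fold limit, -0.40 with the run fixed, -0.35 with the B cell covariate and -0.32 to -0.19 without 1 mouse. Zfp991 had 0.19 as the mean over its probe sets (adjusted p = 0.425). In that setting 11 other named calls were lost. Of 273 named calls 62 passed in every setting, 272 never changed sign and 186 passed without each mouse in turn. The causes were not tested. Signals near the bottom of the scale limit folds of dim genes, and the number of mice limits the rest.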

Other observations

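Several neighbouring groups held metabolic and sensory genes outside the lists above. Slco1a5, an organic anion transporter (-2.58), Ldhb, a lactate dehydrogenase subunit (-2.10), the hormone precursor Spx (-2.04), the oxidoreductase Pyroxd1 (-1.28) and the helicase Recql (-1.13) lie in 1 span and were all lower in NOD WT mice. In another group, Arntl2, a circadian transcription factor (2.33), and Mrps35, a mitochondrial ribosomal protein (1.48), were higher. Another probe set of Arntl2 read 7.32 in B6 and 7.39 in NOD mice and did not pass (limma adjusted p = 0.830). Fabp9 (-2.18) and Fabp12 (-1.10), fatty acid-binding proteins, and Pmp2, a myelin protein of the same family (-1.39), were lower in WT and in KO mice (-1.85, -1.10 and -2.25).

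Beta-defensins moved in both directions within 1 span: Defb1 (-1.98), Defb3 (-1.46) and Defb8 (-1.46) were lower and Defb5 (1.70) was higher, beside Defa31. Mttp, which loads lipid onto apolipoprotein B, was lower (-2.44), as were the serotonin receptor Htr1b (-2.57) and the kinase Bmx (-2.55). Each of these genes kept its call without each mouse in turn. Another probe set of Htr1b, however, read 7.99 in B6 and 8.03 in NOD mice and did not pass (limma adjusted p = 0.911).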
